A study of Mus musculus with 11 samples.

Results

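The proteasome is the protease that degrades proteins tagged with ubiquitin, and its subunits are encoded by the Psma, Psmb, Psmc, Psmd and Psme genes. Genes were taken by name (the letters Psm, then a, b, c, d or e, then a number) and by being listed as protein coding, without the immunoproteasome genes Psmb8 and Psmb9. Among the 36826 genes measured, 41 matched, and 39 of these reached an FPKM (fragments per kilobase of transcript, scaled to library size) of at least 1 in at least 3 of 11 libraries. They are among the 14428 genes that reached this level and were tested. The genes below it were Psma8, a subunit of germ cells with 0 to 29 counts per library, and Psmb11, a subunit of the thymic cortex with 9 to 49 counts. Their highest FPKM values were 0.151 and 0.136.

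Transcripts were measured by bulk RNA sequencing of hippocampus from mice aged 14 months. The 4 wild-type (WT) libraries were from C57BL/6J mice of the same age, 3 sham libraries (numbered 1, 3 and 4) were from APP/PS1 mice given sham magnetic exposure, and 4 libraries labelled RMF came from APP/PS1 mice treated with a 0.4 T magnetic field that rotates. Their transgenes encode mutant human amyloid precursor protein and mutant presenilin, and such mice form amyloid plaques with age. Both APP/PS1 groups carry the transgenes, and only a comparison with WT bears on these; the labels do not name the transgenes' promoter. Exposure or sham exposure began at 2 months and lasted 12 months at 5 days per week, with daily sessions of 3 h up to an age of 11 months and of 6 h after that. Whether WT mice were littermates or were placed in the apparatus is not given in the labels. The protocol speaks of pooled RNA, and no label ties a library to a separate animal, so the p-values rest on differences between these libraries, some of which may be technical. The labelled cell type is neurons, with no isolation step recorded. All 8 neuronal markers examined were present, at a summed 5471 to 7390 CPM (counts scaled to a common library size), but so were astrocyte markers at 733 to 1851 CPM and oligodendrocyte markers at 2463 to 9497 CPM, and the libraries are described here as whole tissue. In such tissue, fewer cells of a type and less RNA per cell cannot be told apart.

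The proteasome is built from a barrel, the 20S core, and caps that open it. In the core, outer rings of alpha subunits form the gate and inner rings of beta subunits hold the proteolytic sites. The 19S cap binds ubiquitin chains, removes them, and unfolds and threads the substrate with a ring of ATPases; smaller activators can take its place. The genes of its subunits are known to share control by the transcription factor NRF1, encoded by Nfe2l1. In neurons the complex also turns over synaptic proteins, and impaired proteasome activity has been described in Alzheimer's disease brain.

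The promoters of Psmb6, Psmb3 and Psma7 are shown because these core subunits are the genes with the largest difference of sham against WT in the beta ring, of RMF against sham in the beta ring, and in both comparisons in the alpha ring. The sequences are from RefSeq, build GRCm38.p6, and run 5′ to 3′ over the 250 bases before the annotated start: chr11:70525107-70525356 on the plus strand for Psmb6, chr11:97703184-97703433 on the plus strand for Psmb3 and chr2:180042465-180042714 on the minus strand for Psma7. Capitals mark, on either strand, the core of the antioxidant response element bound by NRF1 and NRF2 (TGANNNNGC) and the CCAAT box.
Psmb6: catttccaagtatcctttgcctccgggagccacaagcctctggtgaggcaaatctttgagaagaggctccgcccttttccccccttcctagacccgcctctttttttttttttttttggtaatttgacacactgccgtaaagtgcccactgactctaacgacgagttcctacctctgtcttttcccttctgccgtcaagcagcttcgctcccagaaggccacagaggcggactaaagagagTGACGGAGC
Psmb3: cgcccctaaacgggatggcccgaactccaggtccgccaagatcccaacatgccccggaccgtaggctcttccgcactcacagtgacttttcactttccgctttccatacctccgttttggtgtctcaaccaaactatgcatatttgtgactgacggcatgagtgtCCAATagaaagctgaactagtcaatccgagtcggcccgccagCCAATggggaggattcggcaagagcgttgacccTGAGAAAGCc
Psma7: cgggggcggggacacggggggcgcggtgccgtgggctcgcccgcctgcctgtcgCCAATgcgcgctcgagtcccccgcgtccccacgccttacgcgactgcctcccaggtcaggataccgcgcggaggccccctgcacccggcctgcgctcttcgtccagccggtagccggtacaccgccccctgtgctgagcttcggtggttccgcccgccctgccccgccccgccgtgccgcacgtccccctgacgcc
Psmb6 holds 1 antioxidant element core, beginning 9 bases before the start, and Psmb3 holds 1, beginning 10 bases before it, beside 2 CCAAT boxes. Psma7 holds 1 CCAAT box and no such core. A promoter was found for 33 of the 39 genes, and 12 of them (36.4%) hold the antioxidant core, against 41.4% of 10114 tested genes with a promoter. The CCAAT box is in 12 (36.4%, against 40.5%) and the GC box GGGCGG in 20 (60.6%, against 63.9%). All motifs were sought on both strands, and a match to one may share bases with a match to another. Each share lies near that of the tested genes.

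Library totals ran from 68124548 to 70786786 counts, and the proteasome genes took 0.242% to 0.273% of them in 10 libraries and 0.205% in sham 4. Sham 4 also held the largest share of mitochondrial transcripts, 9.53% against 5.76% to 7.39%. WT 3 stood apart in regional markers: its summed markers of neocortex were 707 CPM, where the remaining WT libraries had 137 to 211, and its markers of pyramidal cells 172 CPM, where they had 572 to 675. These levels go against its hippocampal label, and the medians, and the folds of genes described below in which it stood out, are also given without it. App, the mouse counterpart of a transgene, was read as a check of the genotype labels. It stood at 1592 ± 32.5 CPM (SD, n = 4) in WT, 3417 ± 396 (n = 3) in sham and 3387 ± 159 (n = 4) in RMF, with no overlap between WT and the other groups.

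Proteasome transcripts were abundant in hippocampus, and 0 of the 39 genes passed the edgeR test in any comparison between the 3 groups. Of tested genes 0% to 1.19% passed. By this test an unadjusted p under 0.05 was reached by 6 genes in sham against WT (15.4%, against 13.2% of tested genes). It was reached by 7 in RMF against sham (17.9%, against 6.89%) and by 2 in RMF against WT (5.13%, against 8.4%). For at least 35 of the 39 genes in each comparison the interval of the difference lay within 1.5-fold, as for 62.2% to 69.7% of tested genes. In sham the 8 beta ring genes had the lowest median of the roles relative to WT, -0.27 on the log2 scale. The lowest value of 29 genes (74.4%, against 19.4% of tested genes) was in 1 library, sham 4. The median difference of RMF from WT over the 39 genes was -0.019.

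Levels per transcript length are compared here by FPKM, averaged over 11 libraries. The median proteasome gene had 19.2 FPKM, against 5.52 for all tested genes. Psmc5, an ATPase of the cap, was the highest at 73.4 FPKM, and Psmd9, a chaperone of cap assembly, the lowest at 2.67, a 27.5-fold range. By role, the median was 17.9 FPKM in the alpha ring (7 genes, from Psma3 at 11.3 to Psma6 at 33.7) and 19.8 in the beta ring (8 genes, from Psmb10 at 7.18 to Psmb5 at 40.9). The 6 ATPases had the highest median, 37.1 FPKM, with Psmc2 lowest at 14.0. The 11 non-ATPase cap subunits had a median of 20.7, from Psmd11 at 7.75 to Psmd2 at 40.5, and the 3 assembly chaperones one of 6.46. Activators spanned 3.86 FPKM (Psme2) to 34.5 (Psme3). The order held between groups: no gene moved by more than 5 of 39 places between WT and sham, 4 between sham and RMF, or 3 between WT and RMF. Genes whose subunits stand in the same ring differed 2.99-fold in the alpha ring and 5.70-fold in the beta ring with Psmb10. The transcript lengths implied by the deposited counts and FPKM range from 930 to 8671 bases, and a wrong length would shift a gene's place.

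**Figure D1:**
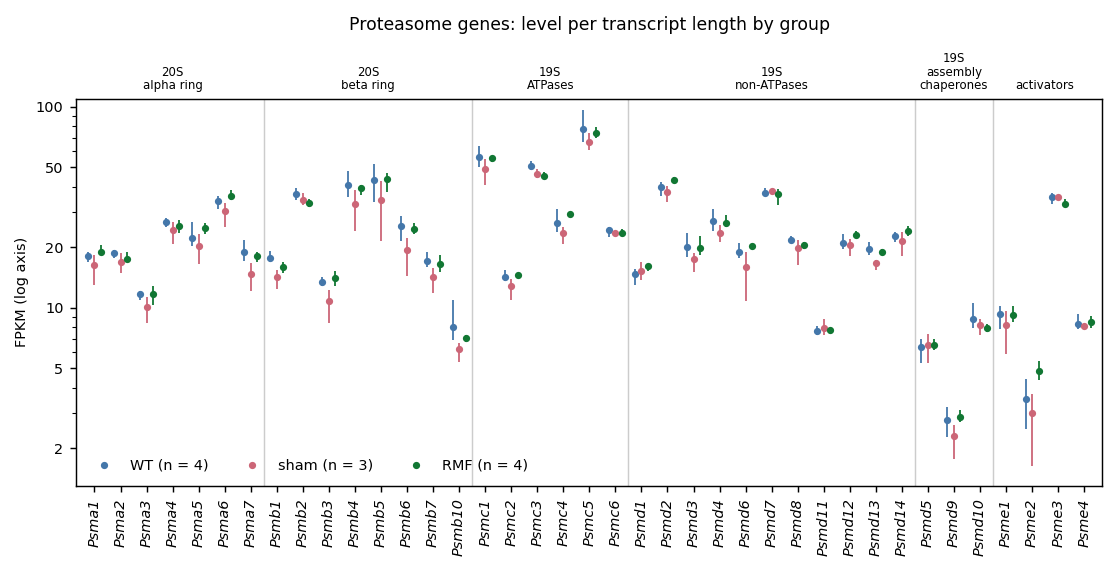
Mean FPKM of the 39 proteasome genes by group on a log axis, ordered by role; points are group means (WT n = 4, sham n = 3, RMF n = 4) and bars run from the lowest to the highest library. Psmc5 is highest and Psmd9 and Psme2 are lowest in every group, and the bars of the groups overlap for most genes.

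Within groups the genes varied little. The SD of log2 CPM between libraries of a group had a median of 0.114 over the 39 genes, against 0.186 over all tested genes, and of 0.0871 against 0.172 without sham 4. The 39 genes also had the higher median level, 19.2 against 5.52 FPKM. The part of level in this spread, and in the widths of the intervals below, was not tested. Psmc3, an ATPase, varied least with an SD of 0.048, and Psme2 most with 0.41.

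The comparison of sham with WT asks what differs in transgenic hippocampus without the field. By edgeR's quasi-likelihood test with Benjamini-Hochberg adjustment, 0 of 39 genes passed an adjusted p of 0.05, where 0.929% of tested genes did, and the smallest adjusted p was 0.157. DESeq2 called 1 gene, Psmb1 (2.56%, where it called 2.39% of tested genes), a share near the background. At an unadjusted p under 0.05 there were 6 genes (15.4%, against 13.2% of tested genes), all lower in sham, namely Psmb1, Psmb3, Psmb6, Psmb7, Psma7 and Psmd13. Of tested genes 6.53% were lower and 6.69% higher at this p. Differences lay below 0 for 32 of 39 genes (82.1%, against 50.3% of tested genes), with a median of -0.12, against -0.0019 for all tested genes. Without sham 4 the median was -0.050, with 28 genes below 0, and without WT 3 it was -0.096, with 32 below 0. The highest sham library lay under the lowest WT library for 6 genes (15.4%, against 6% of tested genes), Psmb1, Psmb3, Psmb7, Psmb10, Psma7 and Psmd13, and the reverse held for 0 genes (6.67% of tested genes). Sham 4 was the lowest sham library of each, so leaving it out could not change their placement; without it the count was again these 6 and 0, where 10.3% of tested genes lay wholly lower and 10.8% wholly higher. For 35 of 39 genes the 95% confidence interval of the difference lay within 1.5-fold in either direction, as it did for 62.2% of tested genes; the exceptions were Psmb5, Psmb6, Psmb10 and Psme2.

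The comparison of RMF with sham asks what the field changed in the transgenic mice, and it shares the sham libraries with the comparison above. The edgeR test passed 0 of 39 genes, where 0% of tested genes passed, DESeq2 also passed 0 of the 39 (0.111% of tested genes), and the smallest adjusted p was 0.719. At an unadjusted p under 0.05, which 6.89% of tested genes had, there were 6 genes higher in RMF (Psma7, Psmb3, Psmb6, Psmc4, Psmd2 and Psme2, 15.4% against 4.21% of tested genes) and 1 lower (Psme3, 2.56% against 2.68%). The median difference was 0.13, with 31 genes above 0 (79.5%, against 49.5% of tested genes) and 8 below, and 0.061 without sham 4, with 27 above and 12 below. Every RMF library lay above every sham library for 12 genes (30.8%, against 5.93% of tested genes), namely Psma6, Psma7, Psmb3, Psmb6, Psmc2, Psmc4, Psmd2, Psmd6, Psmd9, Psmd12, Psmd13 and Psme2. With sham 4 left out the same 12 were so placed, where 10.8% of tested genes were; sham 4 was the lowest library of each, so its loss could not end the separation. Psme3 lay wholly below sham, where 4.72% of tested genes did; with sham 4 left out Psme3 and Psmd8 did, where 9.9% of tested genes did. Intervals were within 1.5-fold for 35 of 39 genes, against 67.4% of tested genes, and past it for Psmb5, Psmb6, Psmd6 and Psme2.

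Against WT, RMF passed 0 of 39 genes by edgeR, where 1.19% of tested genes passed, and 0 by DESeq2, where 2.18% did. At an unadjusted p under 0.05 there were 2, Psmc3 and Psmb2, each lower in RMF (5.13%, where 8.4% of tested genes had such a p and 3.22% were lower). The smallest adjusted p was 0.279, for Psmc3. The genes stood 18 above and 21 below 0 (53.8% below, against 50.2% of tested genes). The median of -0.019 became 0.021 without WT 3. RMF lay wholly below WT for 3 genes (Psmb1, Psmc3 and Psmd8, 7.69% against 2.54%) and wholly above it for 1 (Psmd2, 2.56% against 4.21%). The interval reached past 1.5-fold only for Psme2 among the 39, and lay within it for 69.7% of tested genes. With sham and RMF weighted equally against WT, 0 of 39 genes passed by edgeR (1.43% of tested genes passed) and 0 by DESeq2 (2.84%). There were 4 with an unadjusted p under 0.05, Psma7, Psmb1, Psmc3 and Psmd13, each lower (10.3%, where 12% of tested genes had such a p and 5.69% were lower). In this comparison 28 genes lay below 0 (71.8%, against 51% of tested genes). Psmb1 was the 1 gene (2.56%, against 0.936%) with all 7 APP/PS1 libraries below all 4 WT libraries.

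**Figure D2:**
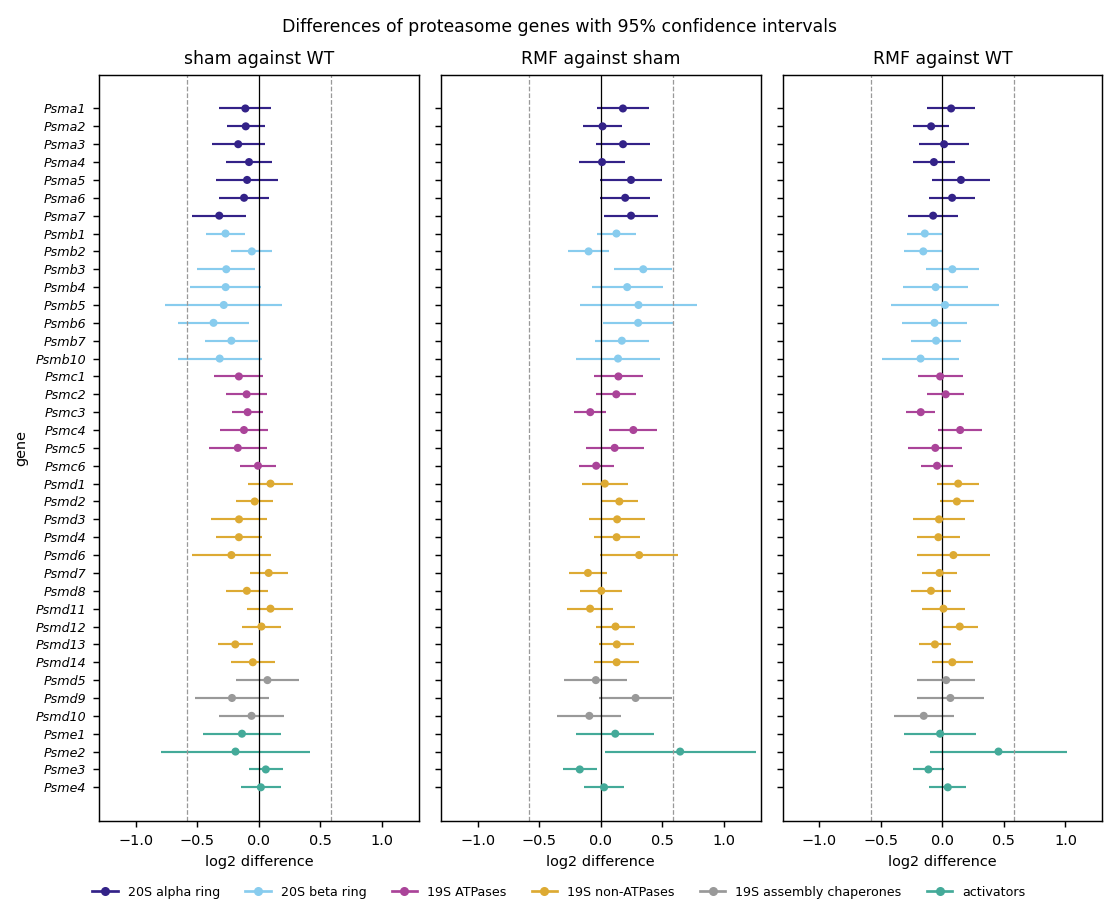
Log2 differences of the 39 genes with 95% confidence intervals for 3 comparisons, coloured by role; dashed lines mark 1.5-fold in either direction. Beta ring genes lie mostly left of 0 in the panel of sham against WT and right of 0 in that of RMF against sham, and Psme2 has the widest interval.

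Gene positions given with the values below are those of the authors' table, for which no source used here names a mouse build, and differ from those of GRCm38.p6 above. The alpha ring genes lay slightly below WT in sham, 7 of 7 below 0 with a median log2 difference of -0.11, and 0 of 7 passed the test. By library, the ring's median distance from the WT mean was -0.035 in sham 1, -0.038 in sham 3 and -0.32 in sham 4. In RMF it was -0.015 to 0.037. With sham 4 left out, Psma1 and Psma5 lay just above 0 in sham against WT (0.0009 and 0.0056). Psma7 (ENSMUSG00000027566, chromosome 2, 179678167 to 179684203, minus strand), a ring subunit that also takes part in assembly of the ring, was at the lower end. Its WT libraries had 59.1, 55.2, 68.1 and 59.7 CPM, its sham libraries 53.5, 50.3 and 41.4, and its RMF libraries 60.3, 57.7, 54.0 and 57.7. Every sham value was below every WT and RMF value, by a small margin, while RMF and WT overlapped. Sham stood at 0.80-fold of WT (log2 difference -0.32, SE 0.099, adjusted p = 0.226) and RMF at 1.19-fold of sham (adjusted p = 0.719). Without sham 4 these were 0.857-fold and 1.10-fold.

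Psma4 (ENSMUSG00000032301, chromosome 9, 54858074 to 54865314, plus strand), the alpha subunit whose tail helps to close the gate, differed least of the ring between sham and WT. Its libraries had 68.4, 63.2, 60.8 and 69.0 CPM in WT, 65.5, 65.3 and 54.6 in sham, and 62.4, 62.5, 58.1 and 66.1 in RMF. The groups overlapped, and sham 4 was the lowest of all libraries. Sham stood at 0.946-fold of WT (adjusted p = 0.678) and RMF at 1.01-fold of sham (adjusted p = 0.993). The other alpha genes, Psma1, Psma2, Psma3, Psma5 and Psma6, had group means between 28.6 and 71.0 CPM, and their differences of sham from WT lay between those of Psma7 and Psma4. Psma5 has a pseudogene, Psma5-ps, at 1.0 to 2.77 FPKM, which could take or give reads.

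The beta ring had 8 of 8 genes below 0 in sham against WT, with a median log2 difference of -0.27, and 0 of 8 passed the test. By library, its median distance from the WT mean was -0.16 in sham 1, -0.13 in sham 3 and -0.51 in sham 4, and -0.14 to -0.042 in RMF. Psmb6 carries the caspase-like site, Psmb7 the trypsin-like site and Psmb5 the chymotrypsin-like site, and the remaining constitutive beta subunits have no active site. Psmb6 (ENSMUSG00000018286, chromosome 11, 70416193 to 70418684, plus strand) had 52.4, 42.3, 54.7 and 49.2 CPM in WT, 43.1, 42.4 and 29.9 in sham, and 46.4, 48.1, 45.1 and 50.3 in RMF. Sham 4 was far the lowest library, the other sham libraries lay just above the lowest WT library, and RMF lay above sham throughout. Sham stood at 0.774-fold of WT (log2 difference -0.37, SE 0.13, adjusted p = 0.277) and RMF at 1.23-fold of sham (adjusted p = 0.722); without sham 4 these were 0.86-fold and 1.11-fold.

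Psmb3 (ENSMUSG00000069744, chromosome 11, 97594225 to 97604326, plus strand), a subunit without an active site, had the largest difference of the core between RMF and sham. Its WT libraries had 32.0, 31.5, 33.1 and 30.6 CPM, its sham libraries 27.9, 29.8 and 21.6, and its RMF libraries 34.1, 33.8, 30.7 and 35.9. Sham lay wholly below both other groups, and WT and RMF overlapped. RMF stood at 1.27-fold of sham (log2 difference 0.35, SE 0.11, unadjusted p = 0.008, adjusted p = 0.719), and at 1.16-fold without sham 4. Sham was at 0.832-fold of WT (adjusted p = 0.329), and at 0.907-fold without sham 4.

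Psmb1 (ENSMUSG00000014769, chromosome 17, 15695283 to 15720013, minus strand), chosen after its values were seen because it had the smallest p of the 39 in sham against WT, also lacks an active site. It had 83.7, 81.3, 89.8 and 81.6 CPM in WT, 73.2, 72.1 and 63.6 in sham, and 76.1, 70.9, 78.2 and 79.2 in RMF. All 7 APP/PS1 libraries were below the WT libraries, and sham and RMF overlapped. Sham stood at 0.828-fold of WT (log2 difference -0.27, SE 0.073, unadjusted p = 0.00317, adjusted p = 0.157 by edgeR and 0.0439 by DESeq2). Without sham 4 the fold was 0.863 (adjusted p = 0.398 by edgeR), and without WT 3, its highest library, 0.848 (adjusted p = 0.209 by edgeR). With all libraries, RMF was at 0.905-fold of WT (adjusted p = 0.611 by edgeR).

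Psmb2 (ENSMUSG00000028837, chromosome 4, 126571423 to 126603507, plus strand), another subunit without an active site, was the beta gene nearest to WT in sham. It had 48.7, 48.4, 42.2 and 44.4 CPM in WT, 41.7, 47.1 and 43.6 in sham, and 39.8, 40.6, 41.8 and 42.7 in RMF. It was the 1 beta gene whose lowest value was not in sham 4, and all groups overlapped. Sham stood at 0.961-fold of WT (adjusted p = 0.75) and RMF at 0.934-fold of sham (adjusted p = 0.836). RMF was at 0.897-fold of WT (adjusted p = 0.589).

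Psmb5, described because its values spread most within the core (a choice made after they were seen), had 47.0, 31.8, 33.0 and 48.4 CPM in WT, 40.0, 37.0 and 21.5 in sham, and 44.04, 43.4, 40.3 and 34.7 in RMF. WT split into a higher and a lower pair of libraries that enclosed all values but sham 4. The 95% interval of sham against WT (0.82-fold, adjusted p = 0.563) ran from 0.591-fold to 1.14-fold, and the fold was 0.961 without sham 4 and 0.775 without WT 3. Psmb5 also has the shortest transcript of the 39, 930 bases. A microRNA gene, Mir686, overlaps it on the same strand.

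Psmb10 (ENSMUSG00000031897, chromosome 8, 106662367 to 106664736, minus strand), the interferon-inducible beta subunit that replaces Psmb7 in immunoproteasomes, is the immunoproteasome gene kept by the naming rule. It had 12.9, 12.4, 18.95 and 12.3 CPM in WT, 11.8, 12.1 and 10.2 in sham, and 12.5, 12.8, 13.0 and 11.8 in RMF. WT 3 alone stood high, and all sham libraries lay just below the lowest WT library. Sham stood at 0.802-fold of WT (adjusted p = 0.401), and at 0.904-fold without WT 3 (adjusted p = 0.614). The FPKM ratio of Psmb10 to Psmb7 was 0.468 ± 0.114 in WT (SD, n = 4), 0.437 ± 0.0161 in sham (n = 3) and 0.429 ± 0.0452 in RMF (n = 4). Psmb4, also without an active site, and Psmb7 had group means of 52.0 to 82.3 CPM, and Psmb7 was wholly lower in sham than in WT.

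The 6 ATPases unfold the substrate, and 6 of 6 lay below 0 in sham, with a median log2 difference of -0.11. Psmc5 (ENSMUSG00000020708, chromosome 11, 106146980 to 106153946, plus strand), the proteasome gene with the highest FPKM, had 102, 97.8, 136 and 109.7 CPM in WT, 107, 96.0 and 94.4 in sham, and 109.8, 101, 104 and 114 in RMF. The groups overlapped, and WT 3 was far above the rest. Sham stood at 0.888-fold of WT (adjusted p = 0.493), or 0.959-fold without WT 3, and RMF at 1.08-fold of sham (adjusted p = 0.87). Psmc3 was chosen after its values were seen, as the gene with the smallest p of RMF against WT. Its libraries had 135, 133, 142 and 139.7 CPM in WT, 125, 134 and 128 in sham, and 128, 118.4, 120.3 and 121 in RMF. RMF lay wholly below WT, and sham lay between and overlapped both; sham 4 was not its lowest library. RMF was at 0.885-fold of WT (log2 difference -0.18, SE 0.054, unadjusted p = 0.0074, adjusted p = 0.279). Psmc3 overlaps the zinc transporter gene Slc39a13 on the other strand, so reads of that gene may be counted in it. Psmc4 was wholly higher in RMF than in sham, with means of 65.3 ± 1.67 (n = 4) and 54.3 ± 4.15 CPM (n = 3) and 59.1 ± 6.36 CPM in WT (n = 4), adjusted p = 0.719 for RMF against sham. Its WT libraries were 56.0, 54.2, 68.4 and 57.9 CPM, so that RMF, at 63.5 to 66.9, lay above all of them but WT 3. RMF stood at 1.10-fold of WT (unadjusted p = 0.104, adjusted p = 0.693), and at 1.17-fold without WT 3 (unadjusted p = 0.00571, adjusted p = 0.201).

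The 11 non-ATPase cap subunits were the least displaced in sham, 7 below 0 and 4 above, with a median log2 difference of -0.050. Psmd1 (ENSMUSG00000026229, chromosome 1, 85992109 to 86066873, plus strand), a large scaffold of the cap, was at the upper end. It had 117, 113, 96.3 and 116 CPM in WT, 114, 129 and 111 in sham, and 120.1, 124, 125 and 114 in RMF. WT 3 was its lowest library and the groups overlapped. Sham was at 1.07-fold of WT (adjusted p = 0.628), or 1.02-fold without WT 3, and RMF at 1.02-fold of sham (adjusted p = 0.974). Psmd1 overlaps the serotonin receptor gene Htr2b on the other strand.

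Psmd6 (ENSMUSG00000021737, chromosome 14, 8348779 to 8357589, plus strand), a subunit of the lid, had 56.7, 52.4, 50.7 and 61.0 CPM in WT, 55.4, 52.8 and 33.5 in sham, and 58.6, 59.7, 58.1 and 58.2 in RMF. Sham 4 was far the lowest library, the other sham libraries lay within the WT range, and the RMF libraries lay close together above all of sham. Sham was at 0.856-fold of WT (adjusted p = 0.505), and at 0.98-fold without sham 4 (adjusted p = 0.916). RMF was at 1.24-fold of sham (log2 difference 0.31, SE 0.15, adjusted p = 0.726), and at 1.08-fold without sham 4 (adjusted p = 0.986).

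Psmd7 (ENSMUSG00000039067, chromosome 8, 108307013 to 108315096, minus strand), the partner of the deubiquitinase Psmd14 in the lid, went the other way. It had 83.5, 89.98, 90.6 and 84.9 CPM in WT, 91.8, 90.2 and 94.7 in sham, and 76.7, 91.2, 88.9 and 86.5 in RMF. Sham 4 was its highest library, and the groups overlapped. Sham was at 1.06-fold of WT (adjusted p = 0.624) and RMF at 0.931-fold of sham (adjusted p = 0.815). Of the remaining non-ATPase subunits, the scaffold and ubiquitin receptor gene Psmd2 was wholly higher in RMF than in both other groups, with means of 180.4 ± 5.19 CPM in RMF (n = 4), 162 ± 11.0 in sham (n = 3) and 166 ± 8.62 in WT (n = 4), adjusted p = 0.722 against sham and 0.68 against WT. Psmd13, a lid subunit, was wholly lower in sham (60.2 ± 1.95 CPM, n = 3) than in WT (68.7 ± 4.17, n = 4), adjusted p = 0.262; it overlaps the deacetylase gene Sirt3 on the other strand. Psmd3, Psmd4, Psmd8, Psmd11, Psmd12 and Psmd14 had group means of 50.6 to 103 CPM. In all, 19 of the 39 genes overlap another gene of the table, and since use of strand in counting is not given, their values are uncertain to that extent.

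The 3 assembly chaperones bind ATPases while the cap is put together and leave before it is complete. Psmd9 (ENSMUSG00000029440, chromosome 5, 123307476 to 123386590, plus strand), the lowest of all 39 by FPKM, had 24.0, 17.4, 21.1 and 19.9 CPM in WT, 19.6, 19.3 and 14.2 in sham, and 22.5, 20.3, 20.2 and 23.1 in RMF. Sham 4 was the lowest library, the others of sham lay within WT, and RMF lay above sham by a small margin. Sham was at 0.859-fold of WT (adjusted p = 0.488) and RMF at 1.22-fold of sham (adjusted p = 0.726), or 1.11-fold without sham 4. Psmd9 overlaps Hpd, a tyrosine catabolism gene, on the other strand. Psmd5 and Psmd10 had group means of 47.7 to 50.04 CPM and 12.1 to 13.4 CPM, and neither was lowest in sham 4.

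Among the activators, Psme1 and Psme2 encode the interferon-inducible regulator PA28 alpha-beta, Psme3 encodes its nuclear relative PA28 gamma, and Psme4 encodes PA200. Psme2 (ENSMUSG00000079197, chromosome 14, 55824898 to 55828558, minus strand) had 5.12, 4.68, 7.97 and 8.16 CPM in WT, 6.87, 6.88 and 3.29 in sham, and 8.13, 9.57, 8.03 and 9.83 in RMF. WT split into a lower and a higher pair of libraries, sham 4 was the lowest library, and RMF lay above sham and overlapped the upper WT pair. RMF was at 1.56-fold of sham (log2 difference 0.65, SE 0.28, unadjusted p = 0.0408, adjusted p = 0.722), with a 95% interval of 1.02 to 2.39-fold, and at 1.29-fold without sham 4 (adjusted p = 0.986). Sham against WT was 0.876-fold (adjusted p = 0.776) and turned to 1.06-fold without sham 4 (adjusted p = 0.92); without WT 3 it was 0.949-fold. A near-identical copy, Psme2b, could take or give reads, which was not tested. Psme2b had 1.93 to 4.44 CPM in WT, 1.79 to 3.48 in sham and 3.02 to 3.49 in RMF. The sum of Psme2 and Psme2b was 9.57, 8.67, 11.6 and 10.1 CPM in WT, 9.25, 10.4 and 5.08 in sham, and 11.2, 12.8, 11.5 and 12.9 in RMF. Summed, WT was less divided, RMF still lay above sham, and RMF overlapped WT.

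Psme3 (ENSMUSG00000078652, chromosome 11, 101207039 to 101214363, plus strand) was the 1 gene of the 39 lower in every RMF than in every sham library. It had 99.8, 113, 112 and 108 CPM in WT, 109, 111 and 116 in sham, and 97.2, 98.1, 99.1 and 105 in RMF. Sham 4 was its highest library, and WT overlapped both other groups. RMF was at 0.889-fold of sham (log2 difference -0.17, SE 0.063, unadjusted p = 0.0205, adjusted p = 0.719) and at 0.903-fold without sham 4 (adjusted p = 0.986). Psme1 had 21.3 ± 2.18 CPM in WT (n = 4), 19.4 ± 4.18 in sham (n = 3) and 21.1 ± 1.49 in RMF (n = 4), and Psme4 71.6 ± 5.02, 72.4 ± 2.25 and 73.8 ± 4.63.

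**Figure D3:**
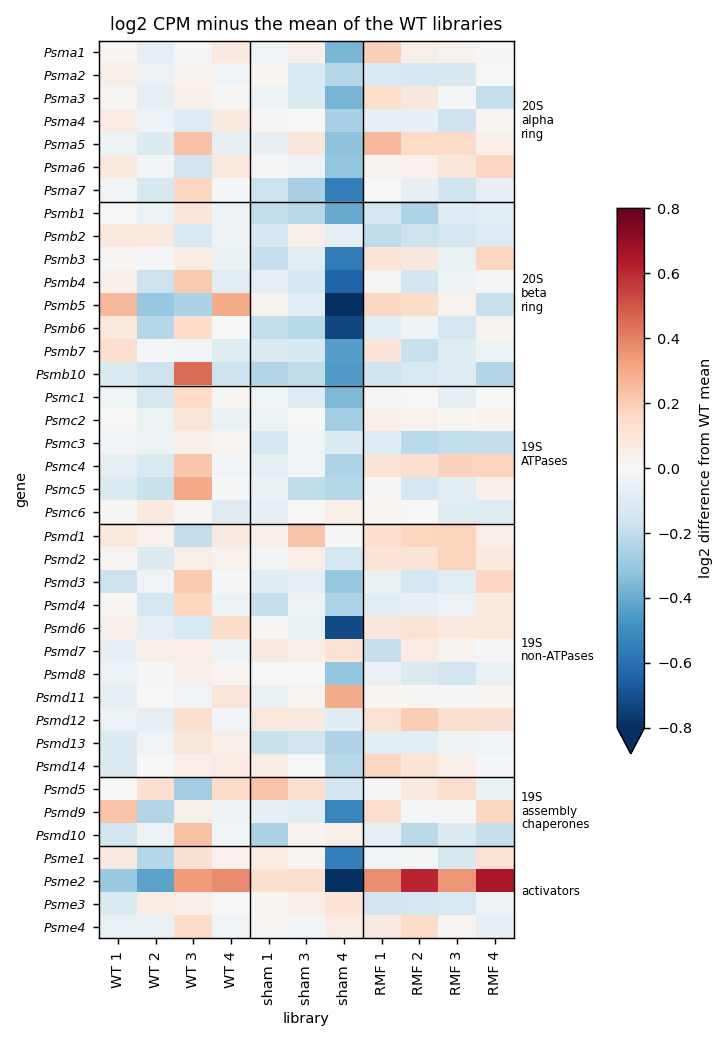
Log2 CPM of each gene and library minus the mean of the WT libraries; rows are the 39 genes by role, columns the 11 libraries, and black lines part roles and groups. The sham 4 column is blue for most rows of the core, with the colour scale ending at -0.8, while Psme2 is the deepest red row of the RMF columns.

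Library by library, the median gene of the 39 stood at -0.28 from the WT mean in sham 4 on the log2 scale and between -0.049 and 0.056 in the other 10. The median over all tested genes lay between 0.0027 and 0.013 in every library. Sham 4 was the lowest of the 11 libraries for 29 of 39 genes (74.4%), against 19.4% of tested genes: 7 of 7 in the alpha ring, 7 of 8 in the beta ring, 4 of 6 ATPases, 8 of 11 non-ATPases, 1 of 3 chaperones and 2 of 4 activators. Against the mean of sham 1 and sham 3 it stood at 0.478-fold for Psme2, 0.56-fold for Psmb5, 0.618-fold for Psmd6, 0.669-fold for Psme1 and 0.689-fold for Psmb4. At the other end it stood at 1.24-fold for Psmd11, a lid subunit. The median of this difference was -0.25 over the 39 genes and -0.0068 over all tested genes.

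Transcript length moved with the levels of several libraries. Across tested genes, Spearman's rho of each gene's deviation from its mean log2 CPM over all 11 libraries with gene length was 0.26 in sham 4, -0.19 in WT 3, -0.19 in RMF 4, 0.12 in sham 3 and -0.073 to 0.074 in the other 7. In sham 4 the deviation was higher for longer transcripts also against its own group (rho 0.21 against sham 1 and sham 3; these are descriptions over 14428 genes of the same libraries), and proteasome transcripts are shorter than most, with a median of 2906 bases against 4211. Across the 39 genes rho was 0.22. After the trend with length was removed from each library, the median of the 39 against sham 1 and sham 3 was -0.19, with 30 of 39 below 0. By role it was -0.19 in the alpha ring, -0.31 in the beta ring, -0.032 in the ATPases, -0.14 in the non-ATPases, -0.38 in the 3 assembly chaperones and -0.24 in the 4 activators. The mitochondrial share of 9.53% also set sham 4 apart, and its part in these values was not tested. Its marker sums lay above the range of the other sham libraries for oligodendrocytes (8183 CPM, against 3935 and 6494), neocortex (255, against 145 and 134) and endothelium (166, against 133 and 134), among others, and their part was not tested either.

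**Figure D4:**
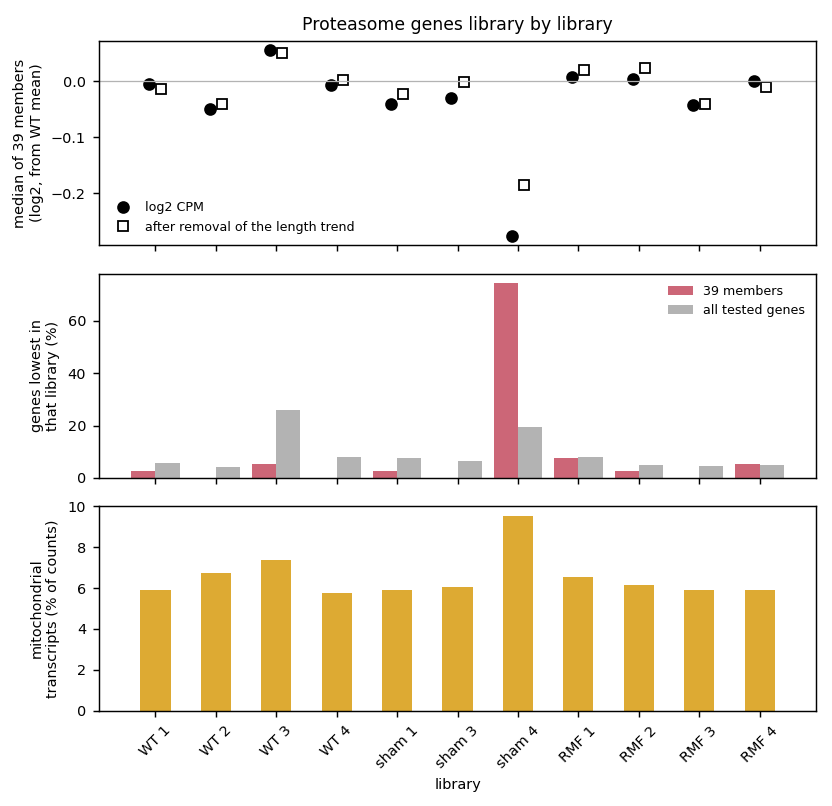
Measures by library: the median log2 deviation of the 39 genes from the WT mean before and after removal of the length trend (top), the share of genes with their lowest value in that library among the 39 and among all tested genes (middle), and the mitochondrial share of counts (bottom). Sham 4 has the lowest median, -0.28 before and -0.18 after removal of the trend, the largest share of the 39 genes at their lowest and the largest mitochondrial share, while WT 3 holds the lowest value of more tested genes, 26.1% against 19.4% in sham 4.

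**Figure D5:**
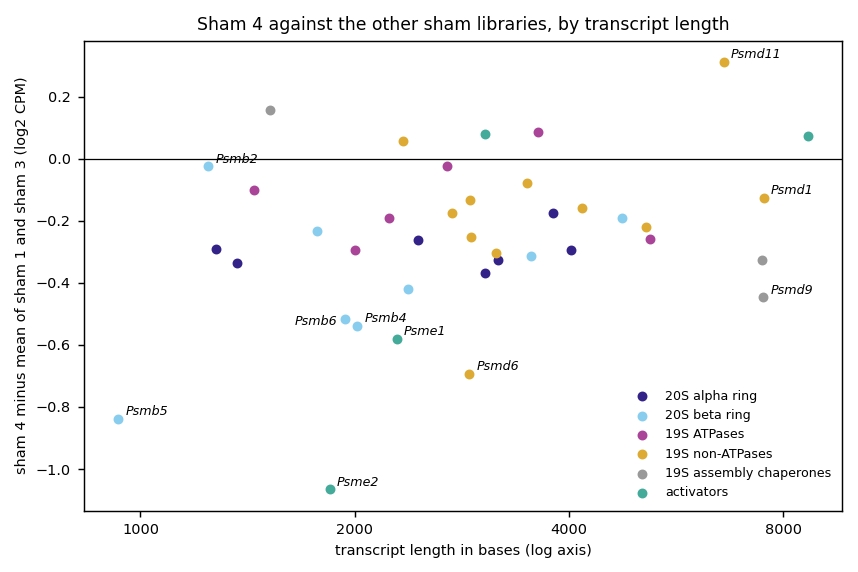
Log2 CPM of sham 4 minus the mean of sham 1 and sham 3 for each of the 39 genes, against transcript length on a log axis and coloured by role. Most points lie below 0 at all lengths, and Psme2 and Psmb5, both short, lie lowest.

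WT 3 was the highest library for 16 of 39 genes (41.03%), against 25.2% of tested genes, among them 5 of 6 ATPases. Relative to the other WT libraries it stood at 1.51-fold for Psmb10 and 1.32-fold for Psmc5, and at 0.791-fold for Psmb5 and 0.775-fold for Psmd5. The part of its regional markers in these values was not tested. Marker sums also differed between the groups. Sums of the 6 astrocyte markers did not overlap between WT (733 to 1197 CPM) and sham (1478 to 1851) or RMF (1628 to 1778). Of these markers, 1 passed the test in RMF against WT. Gfap alone had 92.1 to 357 CPM in WT, 640 to 968 in sham and 785 to 878 in RMF. Aqp4 also did not overlap between WT and the APP/PS1 groups, while Slc1a3, Aldh1l1, Gja1 and Sox9 did. The 5 markers of pericytes and smooth muscle summed to 110.3 to 148 CPM in WT, 154 to 203 in sham and 139.8 to 167 in RMF, and 3 passed in each comparison with WT. Acta2, Tagln and Myh11 were higher in every APP/PS1 library than in every WT library, while Pdgfrb and Rgs5 overlapped. The 7 microglial markers summed to 188 to 231 CPM in WT, 285 to 357 in sham and 299 to 350 in RMF. All 7 were detected in every library, and 2 of them passed the test in sham against WT and 4 in RMF against WT. The 6 liver markers summed to 0.958 to 16.8 CPM in WT, 180.2 to 273 in sham and 71.5 to 135 in RMF, with Apoa2, Ahsg and Fgb at 0 in at least 1 WT library. The 5 skeletal muscle markers summed to 36.7 to 56.4 CPM in WT, 3.44 to 4.20 in sham and 3.60 to 5.10 in RMF, with Myh4, Tnnt3 and Ckm at 0 in at least 1 APP/PS1 library. The part of these cell and tissue markers in the differences of proteasome genes was not tested.

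Other genes of the pathway were read from a list of 40, of which 36 were in the table and 35 were tested. The list holds the factors of proteasome assembly and inhibition, the ubiquitin enzymes and shuttles bound to proteasomes, ubiquitin genes, the inducible subunits and the transcription factors of subunit genes. In sham against WT, RMF against sham and RMF against WT, edgeR passed 0 of these 35. DESeq2 passed 1 (Nfe2l2, 2.86%), 0 and 2 (Nfe2l2 and Psmb8, 5.71%), where it passed 2.39%, 0.111% and 2.18% of tested genes. At an unadjusted p under 0.05 there were 6, 3 and 2, or 17.1%, 8.57% and 5.71%, against 13.2%, 6.89% and 8.4% of tested genes, and the median log2 differences were -0.037, 0.015 and -0.010. The shares at that unadjusted p lie near the background. The 11 tested subunit, inhibitor and assembly genes had 0 at that p in each of these comparisons, with a median of -0.12 in sham against WT; the 15 enzymes and shuttles had 2, 2 and 0. With sham and RMF set jointly against WT, edgeR passed 1, Nfe2l2, which rose (1.43% of tested genes passed). DESeq2 passed 2 in this comparison, Nfe2l2 and Psmb8 (5.71%, against 2.84% of tested genes). Nfe2l2 encodes NRF2, the transcription factor of the antioxidant response. It had 18.9, 17.1, 14.5 and 14.4 CPM in WT, 21.7, 24.0 and 29.4 in sham, and 24.4, 23.0, 19.7 and 25.03 in RMF. All APP/PS1 libraries lay above all WT libraries, and the share of tested genes so placed is not given here. Sham alone lay wholly above WT for 6.67% of tested genes, and RMF alone for 4.21%. For Nfe2l2, sham and RMF overlapped. The difference was 1.48-fold (log2 difference 0.57, SE 0.12, adjusted p = 0.0357 by edgeR), and 1.55-fold for sham alone (adjusted p = 0.0672) and 1.42-fold for RMF alone (adjusted p = 0.123); DESeq2 gave adjusted p = 0.000452, 0.00284 and 0.0196. When each library was left out in turn the adjusted p ran from 0.0313 to 0.141, and the call held only without WT 1, sham 1 or RMF 3 and was lost without any of the other 8. The fold was 1.37 to 1.57 over the 23 alternatives run, 11 of which kept the call.

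Nfe2l1, which encodes NRF1, the activator of proteasome genes, had 306 ± 2.19 CPM in WT (n = 4), 297 ± 15.4 in sham (n = 3) and 296 ± 15.6 in RMF (n = 4), with adjusted p = 0.80 in sham against WT and 0.995 in the comparison of RMF with sham. Pomp, the chaperone of core assembly, had 37.4, 37.3, 55.2 and 37.6 CPM in WT, 36.5, 38.8 and 32.5 in sham, and 42.9, 39.4, 45.01 and 39.4 in RMF. WT 3 stood high, as for Psmb10 and Psmc5, and sham against WT was 0.858-fold (adjusted p = 0.494), or 0.96-fold without WT 3 (adjusted p = 0.822).

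The inducible catalytic subunits that replace Psmb5 and Psmb6 in immunoproteasomes were far lower. Psmb8, the counterpart of Psmb5, had 2.95, 1.98, 2.25 and 2.99 CPM in WT, 3.51, 5.38 and 3.38 in sham, and 4.24, 4.20, 5.56 and 5.70 in RMF. All APP/PS1 libraries lay above all WT libraries, a placement whose share of tested genes is not given here, and sham 4 lay with sham 1. The difference was 1.61-fold for sham against WT (adjusted p = 0.254), 1.94-fold for RMF against WT (log2 difference 0.96, SE 0.21, adjusted p = 0.0682), and 1.2-fold for RMF against sham (adjusted p = 0.85), and with both APP/PS1 groups against WT it was 1.77-fold (adjusted p = 0.0817), so none passed by edgeR. DESeq2 called Psmb8 in RMF against WT (adjusted p = 0.00248) and in both groups against WT (adjusted p = 0.00382). Of the 23 alternatives to the latter, 2 called it, DESeq2 and limma with library weights (adjusted p = 0.0357). The FPKM ratio of Psmb8 to Psmb5 was 0.0168 ± 0.000767 in WT (n = 4), 0.0343 ± 0.00973 in sham (n = 3) and 0.0327 ± 0.00881 in RMF (n = 4). In sham 1, sham 3 and sham 4 it was 0.0232, 0.0385 and 0.0413. In sham 4 both genes had their lowest value of sham, Psmb5 at 21.5 CPM and Psmb8 at 3.38 CPM. Psmb9, the counterpart of Psmb6, had 39 to 159 counts per library, was below the level for testing, and had its lowest count in sham 4.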

How the data were processed

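Bulk RNA was sequenced in 11 libraries. Per the labels, poly(A) RNA libraries were trimmed with Cutadapt 1.9; HISAT2 2.0.4, StringTie 1.3.4d and edgeR are named in the submitters' processing notes. The authors deposited counts and FPKM per gene in 1 table. The notes name a human build, while the table's gene IDs are of mouse; no source used here gives its mouse build or says whether counting used strand. 2 columns of values matching no sample, 1 of counts and 1 of FPKM, were not used.

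Genes that reached an FPKM of 1 in 3 or more libraries were tested by edgeR 4.0.16 (R 4.3.3) on the deposited counts, with TMM scaling, the quasi-likelihood test over all 11 libraries and Benjamini-Hochberg adjustment over 14428 genes; a call is an adjusted p under 0.05. CPM are counts scaled to the TMM-adjusted library size. Intervals cover 95%. Alternatives were DESeq2 1.42.0, limma 3.58.1 with library weights, other filters and scaling, a replicate block, an offset for transcript length and leaving out each library. Length was taken as the count over FPKM and library total, and its trend as a lowess curve per library. Depth was 68124548 to 70786786 counts per library, and errors given are between libraries, counting error included. No libraries agreed within sampling noise.

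The proteasome genes, the pathway and marker lists and the tests were chosen with earlier results of these data known. Values in every library were given by rule for the members with the lowest and highest log2 difference of sham against WT and of RMF against sham in the alpha ring, beta ring, 19S cap and activators, those with the highest and lowest mean FPKM, members called in any comparison (0 were), Psmb10, and of the pathway list the called gene, Psmb8 and Pomp. Nfe2l1 and Psmb9 were also named by rule, and are given as group means and as a range of counts. Psmb1, Psmb5, Psmc3, Psmc4, Psmd2 and Psmd13 were chosen after their values were seen.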

Additional observations from a re-analysis of the deposited data

Results flagged for a closer look

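In each group of 4 libraries, the highest or lowest library was compared with the nearest other by its gap over the whole range, by Dixon's test at the 95% level. Of 84 groups examined 6 had a library that stood apart, and chance gives about 5% (1 in 20). In WT 3, Psmb10 stood at 19 CPM, above 12.3 to 12.9 in the other WT libraries, and Psme4 at 79.1 CPM. In RMF, Psma2 stood apart at 70.9 CPM in RMF 4, Psmc1 at 107 CPM in RMF 3 and Psmd12 at 65.9 CPM in RMF 2. The median log2 deviation of the 39 genes from the WT mean was lowest of the RMF libraries in RMF 3, at -0.043. The sham group has 3 libraries and was not examined in this way.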

How the results depend on the processing

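With edgeR 134, 0, 172 and 206 genes were called in sham against WT, RMF against sham, RMF against WT and APP/PS1 against WT, and 0 of 39 proteasome genes in each. DESeq2 called 345, 16, 315 and 410 genes, with 1 proteasome gene (Psmb1) in sham against WT. With no filter 304, 354 and 413 genes were called in the comparisons with WT, in the order above, and with an FPKM of 0.1 as filter 363, 378 and 464; library weights gave 252, 308 and 320. Fitting only the groups compared gave 76 in sham against WT, leaving out WT 3 and sham 4 gave 260 in RMF against WT, and the length offset with the replicate block gave 131 in APP/PS1 against WT. Same-numbered libraries did not deviate together (correlations of -0.25 to 0.16). These correlations cannot exclude that the numbers mark a shared batch. A replicate block gave 87, 112 and 126 genes in the comparisons with WT, and 0 proteasome genes. With it the median in sham against WT was -0.13, and Nfe2l2 had adjusted p = 0.111 by edgeR in APP/PS1 against WT.

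Leaving out each library gave 89 to 153, 0 to 1, 121 to 203 and 141 to 215 called genes, 0 called proteasome genes, and medians of the 39 log2 differences of -0.17 to -0.050, 0.061 to 0.18, -0.040 to 0.021 and -0.10 to -0.035. The median in sham against WT, -0.12, was -0.044 with library weights, -0.029 without WT 3 and sham 4, and -0.019 with the length offset and without sham 4, a setting chosen after the data were seen; RMF against sham, 0.13, was 0.037 in the last. Over all 39 genes, and in the order of comparisons above, the direction reversed for 8, 6, 0 and 6 genes without sham 4, for 2, 0, 9 and 1 without WT 3, for 6, 3, 2 and 4 with the length offset, for 14, 5, 2 and 8 with the length offset and without sham 4, and for 0, 1, 0 and 0 with DESeq2. Without sham 4 the 8 in sham against WT were Psma1, Psma5, Psmd2, Psmd11, Psmd14, Psme1, Psme2 and Psme4, with differences of at most 0.19 in size before and 0.082 after. Among the 16 genes given in every library for which all alternatives were examined, the direction of log2 differences reversed in sham against WT for Psme2 (0.17 with library weights, 0.20 without WT 3 and sham 4, 0.15 with the length offset and without sham 4, 0.082 without sham 4), Psmb2 (0.052 with the length offset, 0.077 with the block added, 0.013 with the length offset and without sham 4), and, in the latter setting, Psma4 (0.046), Psmd6 (0.0074) and Psmb5 (0.0059). In RMF against sham it reversed for Psma4 (library weights -0.064, length offset -0.044, with the block added -0.051, without WT 3 and sham 4 -0.073, length offset without sham 4 -0.10, without sham 4 -0.074, without RMF 4 -0.019) and Psmd1 (library weights -0.020, without WT 3 and sham 4 -0.0096, without sham 4 -0.011). Of 4 pathway genes examined in APP/PS1 against WT (Nfe2l1, Nfe2l2, Pomp and Psmb8), it reversed for Pomp (library weights 0.064, without WT 3 and sham 4 0.081, without WT 3 0.048). Over the libraries left out, the lowest value for Psme2 in sham against WT was -0.35, and the highest in RMF against sham were 0.055 for Psma4 and 0.10 for Psmd1. Psmb8 was called in APP/PS1 against WT by DESeq2 and with library weights (log2 differences 0.82 and 0.92). The cause of these changes was not tested.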
